A study of Glycine max with 18 samples.

Results

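The genes described here are 4 cell wall genes of soybean, each from a different protein group, out of 56044 genes in the expression table. Glyma.02G072400 encodes an arabinogalactan protein (annotated as arabinogalactan protein 14, here AGP14). Glyma.12G173800 encodes a FASCICLIN-like arabinogalactan-protein (annotated as number 11, here FLA11). Glyma.09G232000 belongs to the plant invertase and pectin methylesterase inhibitor superfamily (PMEI), and Glyma.17G061400 to the peroxidase superfamily (PER). They were taken by identifier from the study's list of wall genes that responded to paclobutrazol (PBZ), AGP14 through its response at 12 hours after imbibition (HAI) and the other 3 through their response at 24 HAI. Those values chose the genes, so they are given below as a description with no test.

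Arabinogalactan proteins are heavily glycosylated proteins of the cell surface and wall. FASCICLIN-like members carry an additional adhesion domain and, in Arabidopsis, FLA11 is known from the secondary walls of stems. Pectin methylesterase inhibitors block the enzymes that remove methyl groups from wall pectin, which changes how stiff or extensible the wall is, although members of the same superfamily can inhibit invertases instead and the annotation does not tell them apart. Class III peroxidases can either cross-link wall polymers or loosen the wall through reactive oxygen species. Gibberellin (GA) promotes growth of the embryonic axis during germination, and PBZ blocks GA biosynthesis at kaurene oxidase.

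All libraries came from embryonic axes of cultivar BRS 284, dissected away from the cotyledons of seeds germinated in plates on sterile water (control) or on water holding 200 µM PBZ. There were 3 independent biological replicates of each treatment at 12, 24 and 36 HAI, which gives 6 conditions and 18 libraries. A replicate pooled the axes of many seeds from several plates, and PBZ is a chemical inhibitor that may leave some GA synthesis in place. Expression is given as RPKM, the reads of a gene scaled by its transcript's length and by the mapped reads of the library, so that levels of different genes can be compared per length. In such bulk tissue, fewer cells that express a gene and less RNA per cell cannot be told apart.

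Relative sequencing depth, estimated from how finely the low RPKM values are spaced, ranged from 0.814 to 2.88 times that of control replicate 1 at 24 HAI. The libraries fell into groups of 9 and 9 by the share of summed RPKM in 63 genes that the study lists as changing together and that mostly resemble organelle genes (organelle-like genes below). That share was 0.187% to 0.732% in control replicate 2 at 12 HAI, all controls at 24 HAI, control replicates 1 and 2 at 36 HAI and all PBZ libraries at 36 HAI, and 3.85% to 11.4% in the others. All 3 PBZ libraries at 24 HAI (4.43% to 7.37%) thus lay above all 3 controls of that time (0.248% to 0.308%), a direction that the choice of these genes fixed. Control replicate 3 at 36 HAI (5.03%) differed from the other 5 libraries of its time. The tissue label was not checked against marker genes.

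AGP14 was abundant throughout, whereas the other 3 genes were near 0 at 12 HAI and reached single-digit RPKM by 36 HAI. With PBZ all 4 genes stood lower than control at 24 HAI, by 1.88-fold (AGP14) to 4.32-fold (PMEI), and all but AGP14 were chosen through that contrast. By 36 HAI the mean of AGP14 with PBZ was 98.7% of control with wide error, FLA11 and PMEI were at 63.1% and 60.7% of it, and PER was at 138%, with no difference past the limits used at that time.

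**Figure D1:**
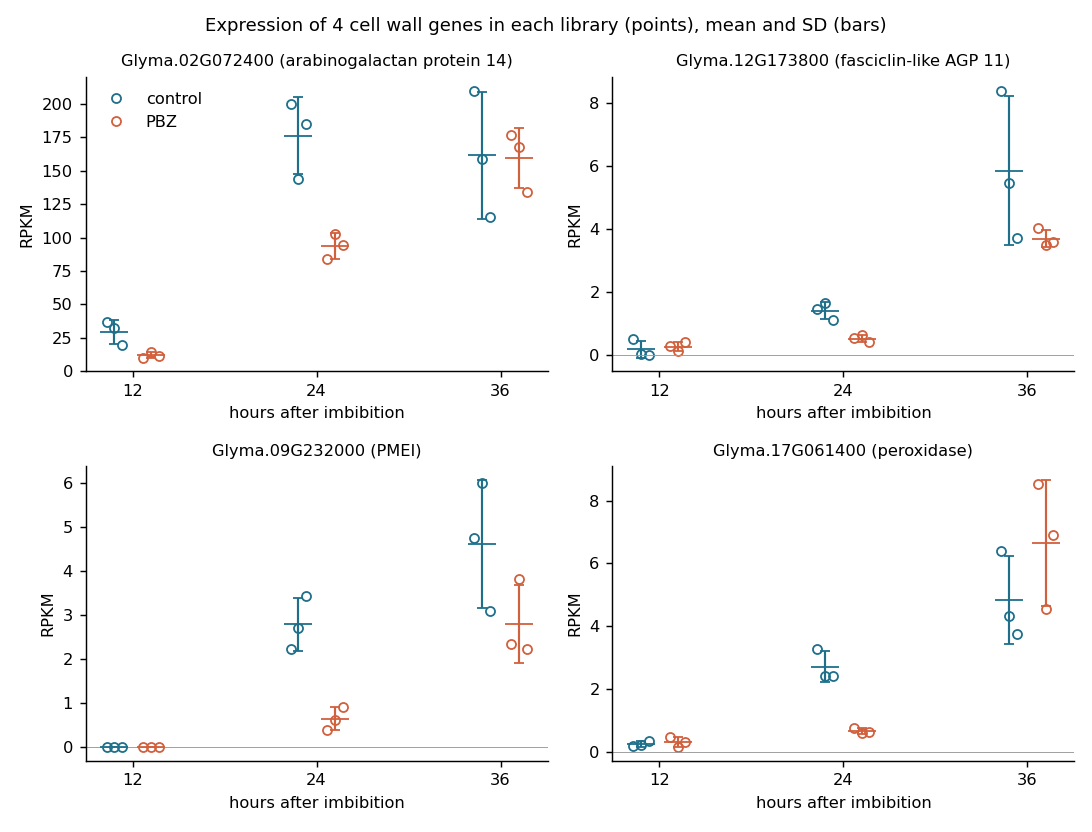
RPKM of the 4 wall genes in each of the 18 libraries (open points) against hours after imbibition, with the mean and SD of the 3 replicates of each condition (bars). At 24 HAI every PBZ point lies below every control point in all 4 panels, as in 22.8% of all genes tested. All but AGP14 were chosen through that contrast. At 36 HAI the points of both treatments overlap in all 4.

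AGP14 had RPKM values of 36.7, 32.1 and 19.4 in control replicates 1 to 3 at 12 HAI and of 10.1, 14.6 and 11.5 with PBZ. At 24 HAI the values were 199.8, 144 and 185 in control and 83.7, 103 and 94.6 with PBZ. At 36 HAI they were 210.3, 159 and 115 in control and 177, 168 and 134 with PBZ. The treatments were thus apart at 12 and 24 HAI and overlapped at 36 HAI, where the control libraries spread widely and replicate 3 was the lowest.

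Mean AGP14 expression in control was 29.4 ± 8.94 RPKM (SD, n = 3) at 12 HAI, 176 ± 28.8 at 24 HAI and 162 ± 47.6 at 36 HAI, against 12.1 ± 2.27, 93.8 ± 9.66 and 159 ± 22.7 with PBZ. In water the gene ranked above 92.7% of all genes at 12 HAI and above 99.3% at 24 HAI. With PBZ it ranked above 80.2% of them at 12 HAI and above 98.2% at 24 HAI.

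FLA11 was listed at 0.488, 0.0207 and 0 RPKM in the control replicates at 12 HAI and at 0.264, 0.104 and 0.416 with PBZ. At 24 HAI it had 1.46, 1.65 and 1.10 RPKM in control replicates and 0.524, 0.624 and 0.399 in PBZ replicates. At 36 HAI the control values were 8.41, 5.46 and 3.72 and the PBZ values 4.02, 3.49 and 3.58. Levels overlapped at 12 HAI, were apart at 24 HAI, and at 36 HAI overlapped only through control replicate 3, which lay below PBZ replicate 1.

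The spread of FLA11 at 36 HAI was 5.86 ± 2.37 RPKM (SD, n = 3) in control and 3.70 ± 0.281 with PBZ. Its means at 24 HAI were 1.40 ± 0.278 and 0.516 ± 0.112. At 12 HAI a single control library held nearly all of the signal, so the ratio of PBZ to control means, 1.54, became 25.2 without control replicate 1 and is not interpretable.

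PMEI was listed at 0 in all 6 libraries at 12 HAI. At 24 HAI the control libraries had 2.23, 2.71 and 3.43 RPKM and the PBZ libraries 0.405, 0.612 and 0.922. At 36 HAI it had 4.74, 5.99 and 3.09 RPKM in control replicates and 2.34, 3.82 and 2.22 in PBZ replicates. The transcript therefore appeared between 12 and 24 HAI in both treatments, lower with PBZ in every library at 24 HAI, and the treatments overlapped at 36 HAI through control replicate 3 and PBZ replicate 2.

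Mean PMEI levels were 2.79 ± 0.606 RPKM (SD, n = 3) in control and 0.647 ± 0.260 with PBZ at 24 HAI, and 4.61 ± 1.46 and 2.80 ± 0.888 at 36 HAI. The PBZ level at 36 HAI was close to the control level at 24 HAI, and the libraries of these conditions overlapped.

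PER had 0.188, 0.226 and 0.358 RPKM in control replicates at 12 HAI and 0.471, 0.140 and 0.309 in PBZ replicates. At 24 HAI it had 3.28, 2.43 and 2.41 RPKM in control replicates and 0.757, 0.584 and 0.623 in PBZ replicates. At 36 HAI the control values were 6.41, 4.34 and 3.76 and the PBZ values 8.53, 4.54 and 6.90. PER was the only one of the 4 genes whose mean was higher with PBZ than in control at 36 HAI, and even there control replicate 1 lay above PBZ replicate 2.

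Mean PER levels were 2.71 ± 0.497 RPKM (SD, n = 3) in control and 0.655 ± 0.0907 with PBZ at 24 HAI, and 4.84 ± 1.40 and 6.66 ± 2.01 at 36 HAI. At 12 HAI they were 0.257 ± 0.0891 and 0.307 ± 0.165, below the 1 RPKM at which the study counts a gene as expressed.

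Ordered by mean level, the conditions ran differently in each gene. For AGP14, PBZ at 12 HAI, control at 12 HAI, PBZ at 24 HAI and PBZ at 36 HAI followed each other with no overlap between neighbors, and the upper 3 conditions (PBZ and control at 36 HAI, control at 24 HAI) overlapped. For FLA11 both conditions at 12 HAI and PBZ at 24 HAI overlapped, control at 24 HAI stood apart above them, and both conditions at 36 HAI were highest and overlapped with each other. For PMEI the order was 12 HAI, PBZ at 24 HAI and then control at 24 HAI without overlap, with control at 24 HAI and both conditions at 36 HAI overlapping. For PER, PBZ at 24 HAI stood above both 12 HAI conditions, control at 24 HAI above it, and both 36 HAI conditions above that, with overlap only between treatments at 12 HAI and at 36 HAI.

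To compare treatments, log2(RPKM + 0.1) was compared between 3 PBZ and 3 control libraries of one time with limma, across every gene with a mean of at least 1 RPKM in either treatment. Log2 changes are PBZ minus control. Because of the added 0.1, changes of genes with low RPKM are understated. The limits were an adjusted p (Benjamini-Hochberg, over all genes tested) of up to 0.05 together with a change of 1 or more on this scale in either direction, which are the study's own limits applied to a different test.

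At 12 HAI, the contrast through which AGP14 was chosen, its log2 change was −1.24 with a standard error of 0.25, and PBZ expression was 41.0% of control. The PBZ and control libraries did not overlap, which held in this direction for 6.74% of the 29297 genes tested, and nothing is read from it since the gene was picked here. Control replicate 2, whose organelle-like share was low, had an AGP14 level between those of the other controls, and without it the control mean was 28.1 RPKM. FLA11, PMEI and PER were under 1 RPKM in both treatments at 12 HAI and were not tested.

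At 24 HAI, AGP14 had not been chosen through the contrast and could be tested. Its log2 change was −0.90 (SE 0.14, 95% interval −1.22 to −0.58, adjusted p = 0.0275 in limma), with PBZ at 53.2% of control and lower in all 9 pairings of a PBZ with a control library. The adjusted p was within its limit but the change was below 1, so the gene did not pass both limits. Of the 31148 genes tested, 1.22% were lower at this adjusted p whatever the size, and the PBZ libraries of 22.8% lay wholly below the controls.

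The adjusted p of AGP14 at 24 HAI depended on single libraries. It rose to 0.0945 when control replicate 1 was left out, and to 0.0950 for control replicate 3. Leaving out PBZ replicate 1 gave 0.0581, and PBZ replicate 2 gave 0.0750. It was 0.0463 without PBZ replicate 3, and without control replicate 2 the change grew to −1.04 with an adjusted p of 0.0232, past both limits. A fit over all 18 libraries gave 0.0873 for the unchanged log2 change. The organelle-like share moved with treatment at this time (4.43% to 7.37% against 0.248% to 0.308%), a direction fixed by how the 63 genes were chosen. With those 63 genes left out and the libraries rescaled, the AGP14 change was −0.91 with an adjusted p of 0.0271.

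FLA11, PMEI and PER were chosen through the 24 HAI contrast. Their log2 changes there were −1.29 (SE 0.29), −1.99 (SE 0.31) and −1.89 (SE 0.22), and PBZ levels were 36.7%, 23.2% and 24.2% of control. That choice put them among the lowest changes, with 0.588%, 0.167% and 0.196% of the genes tested at this time below them, and nothing is read from these ranks. Below AGP14, which was chosen at another time, lay 1.57%. The middle of all genes lay at −0.07, with 90% of them (the 5th to 95th percentile) between −0.58 and 0.53.

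At 36 HAI none of the 4 genes had been chosen through the contrast, and none of the 4 passed both limits in limma, as 0.128% of the 32752 genes tested did. Before adjustment PMEI alone was within 0.05, as were 8.85% of all genes tested. PBZ libraries lay wholly below control in 4.77% of the genes and wholly above in 11%, and in none of the 4.

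The AGP14 change at 36 HAI was 0.01 (SE 0.22, 95% interval −0.50 to 0.53, adjusted p = 0.990 in limma), and 44.2% of all genes had a lower change. The interval spans differences in both directions, so equal levels were not shown. PBZ was lower than control in 4 of the 9 pairings of libraries.

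FLA11 at 36 HAI had a log2 change of −0.58 (SE 0.27, 95% interval −1.21 to 0.06, adjusted p = 0.606 in limma) and was lower with PBZ in 8 of 9 pairings. PMEI had −0.69 (SE 0.29, 95% interval −1.37 to −0.01, adjusted p = 0.557) and was also lower in 8 of 9. PER had 0.44 (SE 0.27, 95% interval −0.20 to 1.08, adjusted p = 0.686) and was lower in 1 of 9. Only 2.9% of all genes had a lower change than FLA11 and 2.17% a lower one than PMEI, while 95.6% had a lower one than PER.

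**Figure D2:**
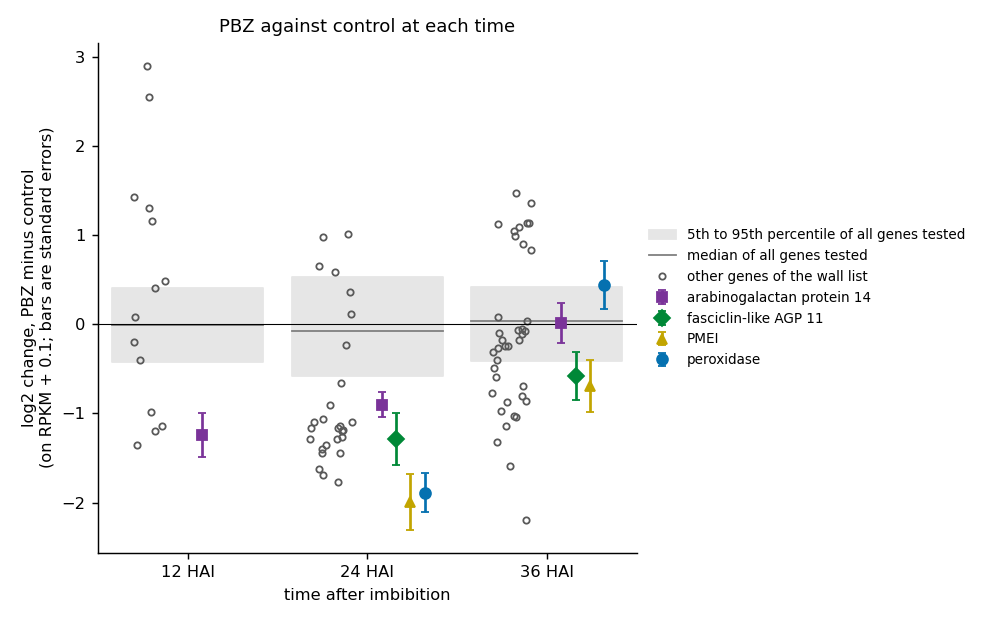
Log2 change of RPKM + 0.1 (PBZ minus control) at each time for the 4 wall genes (filled symbols with standard errors) and the other tested genes of the study's wall list (open points), over the 5th to 95th percentile of all genes tested (gray band) with their median (gray line). At 24 HAI the 4 genes lie between −1.99 and −0.90, below the band, and all but AGP14 were chosen through that contrast. At 36 HAI AGP14 lies at 0.01, inside the band, while FLA11 and PMEI lie below it and PER above it.

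Control replicate 3 at 36 HAI was the lowest of the 3 controls for all 4 genes, and it is the control library with an organelle-like share of 5.03% at a time when the other controls had 0.187% and 0.223%. Without it the log2 changes were −0.21 for AGP14 (adjusted p = 0.765 in limma), −0.86 for FLA11 (0.322), −0.95 for PMEI (0.408) and 0.28 for PER (0.817). The direction of the AGP14 change thus turned, and no call changed. The part of this library's composition in the result was not tested.

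**Figure D3:**
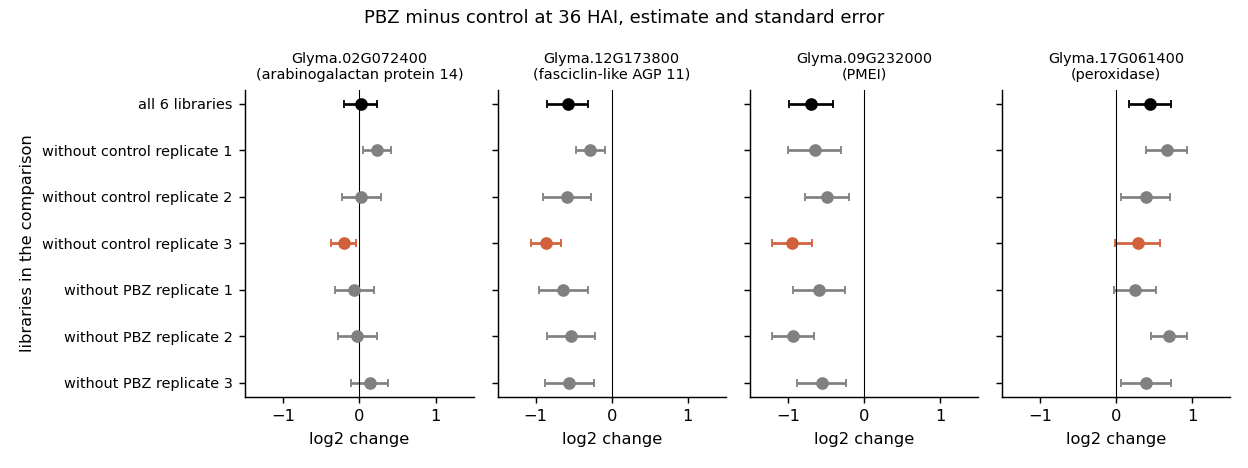
Log2 change (PBZ minus control) at 36 HAI with its standard error for each of the 4 wall genes, over all 6 libraries (black) and with each library left out in turn (gray, and orange for control replicate 3). Without control replicate 3 the AGP14 estimate moves from 0.01 to −0.21, FLA11 to −0.86 and PMEI to −0.95, and PER to 0.28.

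An interaction term over the 12 libraries of 24 and 36 HAI tested whether the PBZ effect on AGP14 differed between them. The change at 36 HAI minus that at 24 HAI was 0.91 on the log2 scale (SE 0.29, 95% interval 0.29 to 1.54, adjusted p = 0.111 in limma). It did not pass, and 0.00894% of the 33541 genes did, although 22.6%, AGP14 among them, were within 0.05 before adjustment. For FLA11 and PER the PBZ effects at 36 and 12 HAI were set side by side instead, where 0.0495% of 34328 genes passed both limits. The differences were −1.39 (SE 0.84) for FLA11 and 0.32 (SE 0.50) for PER. Both genes were under 1 RPKM in both treatments at 12 HAI and entered only through their 36 HAI level. For FLA11, 1 control library held nearly all of the control signal at 12 HAI. These differences thus cannot show whether the PBZ effect changed, and no test of them is given. PMEI was listed at 0 in every library of 12 HAI, so no difference between these times could be tested for it.

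Over time, mean FLA11, PMEI and PER levels were higher at 36 than at 12 HAI in both treatments, and for each gene every library of 36 HAI lay above every library of 12 HAI of the same treatment. All 3 were under 1 RPKM at 12 HAI and entered this comparison only through their 36 HAI level, so an increase was the one change they could show and no test of it is given. As ratios of mean RPKM, PER was 18.8-fold higher at 36 HAI in control and 21.7-fold with PBZ. FLA11 was 14.2-fold higher with PBZ, and its 34.6-fold ratio in control rests on a 12 HAI mean carried by 1 library. PMEI, listed at 0 at 12 HAI, has no fold.

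Increases over this span were common, with 26.3% of 33588 genes higher past both limits in control and 27.7% of 33825 with PBZ. Libraries of 36 HAI lay wholly above those of 12 HAI in 39.9% of genes in control and 41.4% with PBZ. The control and PBZ series share no libraries, and the PBZ comparison at 36 HAI uses the later libraries of both.

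The 3 genes differed in how much of the 36 HAI level was present at 24 HAI. In control, FLA11 stood at 24.0% of its 36 HAI level, PMEI at 60.5% and PER at 56.0%. With PBZ the same shares were 13.95%, 23.1% and 9.83%. From 24 to 36 HAI the mean thus rose 4.18-fold (FLA11), 1.65-fold (PMEI) and 1.79-fold (PER) in control, and 7.17-fold, 4.32-fold and 10.2-fold with PBZ, values that include the 24 HAI libraries that chose the genes and carry no test.

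AGP14 followed another course, with a mean at 24 HAI that was 109% of its 36 HAI mean in control and 58.8% with PBZ. From 12 to 24 HAI its mean rose 5.99-fold in control and 7.76-fold with PBZ, which involves the 12 HAI libraries that chose it. From 24 to 36 HAI, which does not, its log2 change was −0.15 in control (SE 0.23, 95% interval −0.69 to 0.38, adjusted p = 0.592 in limma) and 0.76 with PBZ (SE 0.13, 95% interval 0.46 to 1.06, adjusted p = 0.00298). The PBZ rise met the adjusted p but not the limit of 1, and 28.1% of 33020 genes were higher at this adjusted p. In control 47.7% of 32882 genes, AGP14 not among them, met it in either direction. Without any one library the adjusted p of the PBZ rise stayed between 0.00347 and 0.0130. The control libraries of 24 HAI differed in organelle-like share from control replicate 3 at 36 HAI alone, and without that library the control change was 0.07. All 3 PBZ libraries of 24 HAI (4.43% to 7.37%) differed in it from those of 36 HAI (0.242% to 0.415%). With the 63 genes left out, the PBZ rise was 0.69 with an adjusted p of 0.00343.

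Across the 18 libraries, Pearson's r of log2(RPKM + 0.1) between the 4 genes ranged from 0.79 (AGP14 with FLA11) to 0.94 (AGP14 with PMEI), with 0.92 for PER with FLA11 and with PMEI. These libraries share the 6 conditions and the large change over time, so such values are common. Of the 34471 genes compared, r exceeded 0.9 with 11.6% for AGP14, 4.51% for FLA11, 16.2% for PMEI and 7.7% for PER.

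The genes most like AGP14 were Glyma.03G137200 (r = 0.99), Glyma.09G186800 (0.98) and Glyma.13G144800 (0.98). Glyma.09G186800 had 14.1 RPKM in control and 9.24 with PBZ at 24 HAI, and 14.2 and 13.8 at 36 HAI. Those most like FLA11 were Glyma.07G034800 (0.98), Glyma.18G022100 (0.98) and Glyma.11G097000 (0.97). Glyma.07G034800 had 3.99 and 1.66 RPKM at 24 HAI and 30.3 and 21.3 at 36 HAI, the same order of conditions as FLA11.

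PMEI was most like Glyma.13G147300, Glyma.U016700 and Glyma.19G044900 (r = 0.99 for each). The last was far more abundant, with 85.6 RPKM in control and 42.2 with PBZ at 24 HAI. PER was most like Glyma.20G090700 (0.98), Glyma.16G142700 (0.97) and Glyma.12G227900 (0.97), and Glyma.20G090700 had 2.30 RPKM in control and 0.486 with PBZ at 24 HAI. Within the wall list, the nearest gene to PMEI was the hydroxyproline-rich glycoprotein gene Glyma.07G216900 (r = 0.98), and the nearest to PER were the beta-xylosidase genes Glyma.09G038600 and Glyma.15G143700 (r = 0.96 for both), whose products trim xylose from wall polysaccharides.

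The wall list of 44 genes, from which the 4 were taken, was chosen by the study on these samples and is no independent evidence of direction. At 24 HAI 31 of its genes were tested, of which 3 were lower and 1 higher past both limits, against 0.202% and 0.716% of all genes tested. The 3 lower genes were PMEI and PER, which were chosen through this contrast, and the expansin gene Glyma.12G150900. The median change of the 31 tested genes was −1.17 against −0.07 for all genes. At 36 HAI 42 were tested, 1 was higher and 0 lower past both limits in limma, and the median was −0.21 against 0.04.

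Other genes of the same families on this list varied. The other FASCICLIN-like gene, Glyma.12G207600, had 34.5 ± 7.14 RPKM (SD, n = 3) in control and 16.9 ± 5.30 with PBZ at 24 HAI, and 67.6 ± 13.3 and 44.2 ± 0.832 at 36 HAI. Unlike FLA11, its treatments did not overlap at 36 HAI, with a log2 change of −0.59 (SE 0.14, adjusted p = 0.252 in limma), and the difference between both genes was not tested.

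Among the 8 other peroxidases of the list, none of the 8 passed both limits at 36 HAI in limma, though all 8 had PBZ libraries wholly below (3 genes) or wholly above (5 genes) the controls, against 4.77% and 11% of all genes tested, and they were listed by the study for differing. Glyma.04G220600 had 22.5 ± 9.94 RPKM (SD, n = 3) in control and 4.69 ± 1.44 with PBZ at 36 HAI. Glyma.03G007700 went the other way with 4.96 ± 0.950 and 12.9 ± 2.45. Glyma.08G162700 stood lower with PBZ at 24 HAI (2.48 ± 0.363 in control, 1.03 ± 0.430 with PBZ) and higher at 36 HAI (16.7 ± 2.76 and 31.7 ± 8.53), the same order of means as PER. Glyma.06G275900 stood lower at both times, at 14.1 ± 0.518 and 4.98 ± 2.75 RPKM and then at 40.7 ± 11.5 and 25.0 ± 5.52. Glyma.17G052900 was the one of the 8 with a lower mean at 36 than at 12 HAI in control, at 0.356 ± 0.171 against 1.79 ± 0.156 RPKM.

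A second list, not picked for a response, held 9 genes on chromosome 1 annotated to the same families. They were found in a shortened table, so the list may not hold every such gene. None of its 6 tested genes passed both limits at 24 HAI and none of 9 at 36 HAI in limma, and 5 of the 6 had lower means with PBZ at 24 HAI, with a median log2 change of −0.30 against −0.07 for all genes. All 3 arabinogalactan genes had PBZ libraries wholly below control at 24 HAI, as did 22.8% of all genes tested. Glyma.01G025100 had 284 ± 8.84 RPKM (SD, n = 3) in control and 219 ± 22.4 with PBZ, and at 36 HAI 334 ± 42.8 and 321 ± 24.5, which overlapped as in AGP14. Glyma.01G190900 (arabinogalactan protein 18) had 58.8 ± 0.466 and 39.6 ± 8.20 at 24 HAI and 88.6 ± 13.1 and 92.2 ± 16.04 at 36 HAI.

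The inhibitor genes of this second list had opposite courses over time. Glyma.01G137700 was under 0.1 RPKM at 24 HAI in both treatments (0.0386 ± 0.0260 in control and 0.0743 ± 0.0571 with PBZ, SD, n = 3) and at 36 HAI had 7.29 ± 0.892 and 12.9 ± 2.08, so it appeared later than PMEI and stood higher with PBZ (log2 change 0.81, SE 0.14, adjusted p = 0.139 in limma). Glyma.01G211300 fell from 7.84 ± 0.621 RPKM at 12 HAI to 1.08 ± 0.119 at 36 HAI in control, by 2.75 on the log2 scale (adjusted p = 4.12e-06 in limma), and 15.7% of all genes fell past both limits in that comparison. Of the 4 peroxidases of that list, 0 passed both limits for PBZ against control at 24 or 36 HAI in limma. Glyma.01G171100 alone was within 0.05 before adjustment at 36 HAI.

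**Figure D4:**
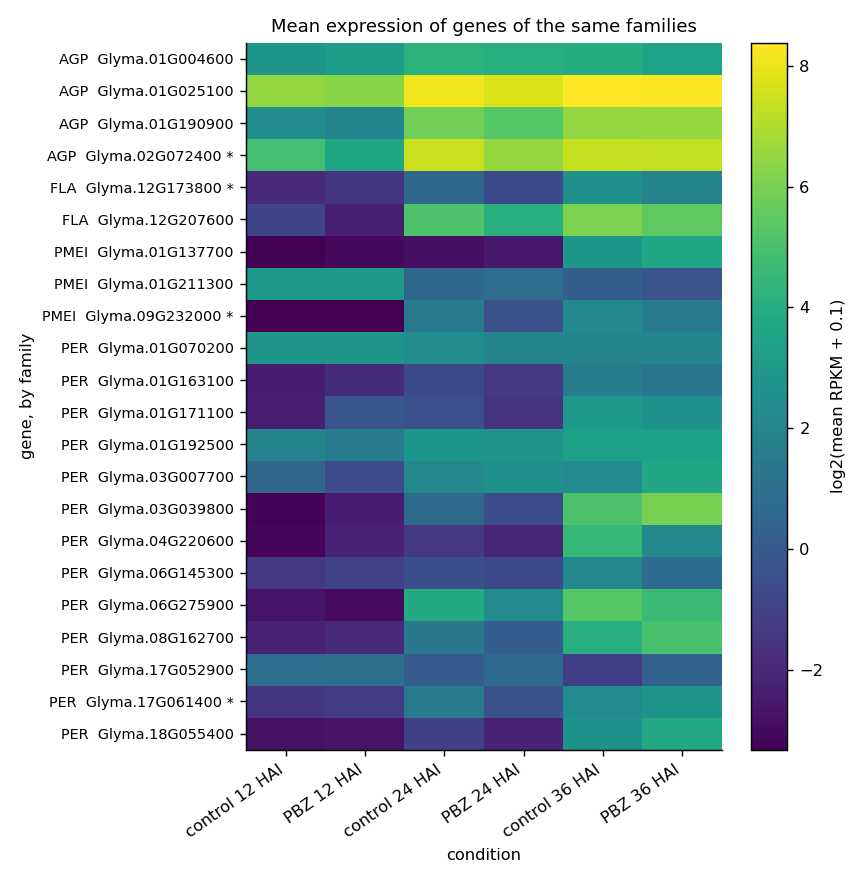
Mean expression, as log2(mean RPKM + 0.1), of the 4 wall genes (marked with an asterisk) and 18 other genes of the same families, with genes in rows by family and the 6 conditions in columns. Glyma.01G025100 is bright in all conditions, and Glyma.02G072400 is brighter from 24 HAI on than at 12 HAI. Most peroxidases turn from dark to bright between 12 and 36 HAI, and Glyma.01G211300, Glyma.17G052900 and Glyma.01G070200 go the other way.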

How the data were processed

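The authors removed rRNA reads, aligned the rest with Novoalign (3.06.05) to the Wm82.a2.v1 genome, kept those with a unique position and ran Cufflinks (2.1.1) to obtain RPKM, with bias correction and a strand-specific setting. The library kit they name does not mark strand, and which of these applied was not settled, so reads of antisense partners may be included or left out. They deposited RPKM values for 56044 genes, and no counts were used here. A gene with a near-identical copy is therefore measured by its distinguishing reads alone, and overlapping genes were not checked. All 18 columns were matched by name and 0 were left unmapped. RPKM gives no counting error, so the spread of 3 replicates sets the precision.

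Groups were compared with limma 3.58.1 (trended empirical Bayes variance, two-sided) in R 4.3.3 on log2(RPKM + 0.1), over genes averaging 1 RPKM or more in a group, and the code was tested on simulated data. Cuffdiff, used by the study, needs alignments and was not repeated. Values and figures used Python 3.11.15, numpy 2.4.6, pandas 2.3.3 and matplotlib 3.10.9. The members, lists and tests were chosen with earlier results of these data known. Named genes were the 4 members, the genes of their families on the wall list and on chromosome 1 (annotated from a shortened table), and for each member the 3 genes with the highest r over 18 libraries. Nearest wall genes were named after their values were seen.

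Alternatives were pseudocounts of 1 and 0.01, no filter, a filter at 5 RPKM, median-ratio size factors, the 63 organelle-like genes left out with rescaling, all 18 libraries in 1 fit, a block for the replicate number, and single libraries left out. The gene table used for names of another assembly matched 0 identifiers, so names are those of the study, and no sequences or coordinates are given.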

Additional observations from a re-analysis of the deposited data

How the results depend on the processing

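Of the log2 changes of the 4 genes, 125 of 126 alternatives in settings and 120 of 126 with 1 library left out kept direction and call. This says nothing of stability for FLA11, PMEI and PER from 12 to 36 HAI, where the filter fixed the direction. Nor does it for the 36 minus 12 HAI interactions, where PMEI restates its 36 HAI change and FLA11 and PER were under 1 RPKM at 12 HAI. The exceptions were AGP14 at 36 HAI (−0.034 with median-ratio size factors, −0.21 without control replicate 3, −0.066 without PBZ replicate 1, −0.028 without PBZ replicate 2, and up to 0.23 without another library), AGP14 in control from 24 to 36 HAI (0.068 without control replicate 3 of 36 HAI, and from −0.37 without another), PER in the 36 minus 12 HAI interaction (−0.021 without PBZ replicate 2 of 12 HAI, and up to 0.60 without another), and AGP14 at 24 HAI, which passed both limits without control replicate 2. Median-ratio size factors moved the middle of all genes by 0.13 from 24 to 36 HAI in control. PMEI at 36 HAI had no value with a filter at 5 RPKM, where it was not tested.

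Counts of genes past both limits moved more. At 12 HAI 3 genes passed, 0 with pseudocounts of 1 or 0.01 or a filter at 5 RPKM, and 18 with all 18 libraries in 1 fit. At 24 HAI 286 passed, and 21 in that fit. At 36 HAI 42 passed, and 26 with no filter. With a filter at 5 RPKM, where fewer genes are tested, the counts fell from 14109 to 8917 (control, 12 to 36 HAI), 14813 to 9450 (PBZ), 4428 to 2351 (control, 24 to 36 HAI) and 6142 to 3294 (PBZ), and control from 24 to 36 HAI gave 2817 with a pseudocount of 1. The 36 minus 12 HAI interaction had 17 genes (8 higher), 4 with a pseudocount of 1, 6 with no filter and 13 (8 higher) with the organelle-like genes left out. The 36 minus 24 HAI interaction had 3 genes (1 higher), 10 (6 higher) with those genes left out, 13 with a pseudocount of 0.01 and 9 with a filter at 5 RPKM. The cause was not tested.

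With 1 library left out, the counts ranged from 0 to 7 at 12 HAI, 126 to 298 at 24 HAI, 0 to 17 at 36 HAI, 13639 to 14492 and 3890 to 4624 in control from 12 and 24 to 36 HAI, 14428 to 15080 and 5295 to 6528 with PBZ, 0 to 20 for the 36 minus 12 HAI interaction and 0 to 69 for 36 minus 24 HAI, the last without control replicate 3 of 36 HAI.

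The labels number the replicates and do not state what same-numbered libraries share. Deviations of same-numbered control and PBZ libraries correlated at 0.03 to 0.26 at 12 HAI, 0.06 to 0.23 at 24 HAI and 0.07 to 0.28 at 36 HAI, and every control library matched the PBZ library of its own number best at 24 and 36 HAI but not at 12 HAI. With the replicate block 4, 369 and 77 genes passed at 12, 24 and 36 HAI, and no call on the 4 genes changed.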
